A study of Mus musculus with 60 samples.

Results

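Transcript levels of complement genes were followed in heart, gastrocnemius muscle and neocortex of aging male mice. The list held 8 genes, namely C1qa, C1qb, C1qc, C3, C4b, Serping1, C3ar1 and C5ar1, taken by symbol from the annotation of the array, in which 18193 genes had a probe set naming no other gene. Of the 8, 6 genes had probe sets of their own, 11 in all. C4b shared its probe set with C4a, its near-identical neighbour, and no probe set carried the name C3, so C3 was not analysed here.

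The animals were B6C3F1 hybrids (C57BL/6 crossed with C3H/He), and each tissue was measured in 4 groups of 5 arrays. Young controls were 5 months old. Old controls, old mice on calorie restriction (CR) and old mice given resveratrol were 30 months old, and both diets had begun at 14 months of age. The labels give CR as a restriction of 40% and the resveratrol dose as 4.9 mg/kg. The weekly intakes stated in the study's methods put CR at a smaller cut than this against the controls. All groups ate a purified control diet or a version of it, the controls below ad libitum intake, so every contrast here is against mildly limited feeding. The comparison of old with young controls addressed aging, and each diet was compared with the same old controls to ask whether it opposed the changes of aging.

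Complement is a cascade of plasma and tissue proteins that tags microbes, dying cells and, in the brain, synapses for removal. The C1q complex, built of A, B and C chains, opens the classical pathway, in which C4 and then C3 are cleaved, and the C1 inhibitor (encoded by Serping1) blocks the proteases bound to C1q. The small peptides released from C3 and C5 act through the receptors encoded by C3ar1 and C5ar1. C1q is made mainly by macrophages, and in the brain by microglia, while much of the C4 in brain comes from astrocytes.

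C1qa, C1qb and C1qc lie side by side on the same strand of chromosome 4 (GRCm38.p6, RefSeq), at chr4:136895916-136898844, chr4:136880126-136886200 and chr4:136889801-136892936. The promoter sequences at hand covered C1qb and C1qc but not C1qa. The 250 bases before the start of C1qb and C1qc are shown as given by RefSeq for the minus strand, 5′ to 3′, at chr4:136886201-136886450 for C1qb and chr4:136892915-136893164 for C1qc. The start that the promoter table uses for C1qc lies inside the span given for the gene, so the last bases shown for it overlap that span. Capitals mark GAGGAA or its reverse complement TTCCTC, the core bound by PU.1, a transcription factor of myeloid cells.
C1qb: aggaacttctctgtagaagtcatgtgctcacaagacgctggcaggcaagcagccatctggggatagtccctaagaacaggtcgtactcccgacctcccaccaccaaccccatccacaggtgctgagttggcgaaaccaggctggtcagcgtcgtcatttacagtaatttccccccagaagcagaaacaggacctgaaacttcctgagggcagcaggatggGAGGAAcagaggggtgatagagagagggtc
C1qc: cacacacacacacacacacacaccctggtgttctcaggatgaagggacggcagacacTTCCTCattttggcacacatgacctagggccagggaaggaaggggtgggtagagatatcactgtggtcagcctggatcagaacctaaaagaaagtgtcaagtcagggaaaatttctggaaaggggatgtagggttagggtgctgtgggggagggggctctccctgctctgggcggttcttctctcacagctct
The match began 30 bases before the start in C1qb and 193 bases before it in C1qc. Of 32851 promoters of this length, 23.3% held the same letters on either strand. TTCNNNGAA (the STAT motif, in 7.02% of promoters), an interferon response core (GAAA, any 2 bases and GAAA, in 2.98%) and TATAAA (in 12.4%) were found in neither sequence.

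All values are GCOS signals, the linear intensity that the authors scaled on each array. Differences are between group means of log2 signal, so 1 stands for a 2-fold difference. Only genes at or above the 40th percentile of mean signal in a tissue were tested there, and one was called where limma's test, adjusted over all genes of the tissue by the Benjamini-Hochberg method, gave P below 0.05. Of the 6 members, 6 were tested in heart and 5 in muscle and neocortex, where C5ar1 was below that level. In bulk tissue, fewer cells of a type and less RNA per cell cannot be told apart. Titles call the arrays biological replicates.

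All the markers listed for cardiomyocytes in heart (8 of 8), skeletal fibres in muscle (8 of 8) and neurons in neocortex (8 of 8) were above the detection cut-off. Several arrays stood apart. In heart, young control replicate 1 had a summed signal of 14860 for B and T cell markers, against 417.5 to 2181 in the other young hearts, and 42620 for macrophage markers. In muscle, replicate 4 of the young and replicate 1 of the old controls had β-actin 3′ minus 5′ differences of 1.11 and 1.40 (log2), a sign of shorter RNA, and they also held low C1q values. Spiked poly(A) controls in muscle were lower in both control groups (6.40 to 8.10, log2) than in both diet groups (9.16 to 10.61), and in heart the β-actin difference was higher in old controls (1.26 to 1.66) than in the other groups (0.61 to 0.95). Heart old control replicate 4 had the highest of these heart values.

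In neocortex, the C1q genes were higher in old than in young controls and lower under CR than in old controls. Each of the 3 chains rose with age (3 of 5 members, against 1.08% of all genes tested that rose) and fell under CR (3 of 5 members, against 17.5% of genes that fell), whereas only C1qa passed the test under resveratrol (1 of 5, against 12.3% of genes that rose). The median difference over the 5 members was 0.57 with age, -0.32 under CR and 0.29 under resveratrol, beside 0.02, -0.03 and -0.01 over all genes. The age and diet differences share the old controls, and are given side by side with no test of their relation. By the methods' t-test on log2 signal the 3 age differences passed unadjusted P of 0.01 or less, but none passed after Benjamini-Hochberg adjustment (adjusted P = 0.0712, 0.0712 and 0.125 for C1qa, C1qb and C1qc).

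C1qa, the A chain, had signals of 1536, 1751, 1823, 1658 and 1549 in young neocortex and 2100, 2444, 2367, 2966 and 2538 in old controls. Under CR the signals were 1985, 1781, 2134, 2257 and 1784, and under resveratrol 2875, 3146, 2585, 4108 and 2919. Every old control was above every young one, 2 of 5 CR arrays were above the lowest old control, and all resveratrol arrays were above all CR arrays. The log2 difference was 0.57 (SE 0.11) with age (adjusted P = 0.00619), -0.32 under CR (adjusted P = 0.0253) and 0.32 under resveratrol (adjusted P = 0.0261).

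C1qb, the B chain, had signals of 993, 1105, 1180, 1154 and 1128 in young controls and 1471, 1596, 1532, 1890 and 1424 in old controls. Under CR they were 1043, 1062, 1203, 1373 and 1229, and under resveratrol 1942, 1949, 1525, 2746 and 1659. The CR arrays lay within and just above the young range and below all old controls. The difference was 0.50 (SE 0.12) with age (adjusted P = 0.0318), -0.42 under CR (adjusted P = 0.00922) and 0.29 under resveratrol (adjusted P = 0.076). The age call of C1qb was lost without any 1 of young control replicates 2 and 5 or old control replicates 2, 3 and 4 (0.44 to 0.51, adjusted P = 0.0573 to 0.117).

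C1qc, the C chain, had signals of 795, 843, 981, 1030 and 1196 in young controls and 1319, 1348, 1563, 1667 and 1430 in old controls. Under CR they were 1152, 995, 1160, 1194 and 1063, and under resveratrol 1352, 1496, 1249, 2136 and 1316. Young and old controls did not overlap, nor did CR and old controls, while resveratrol arrays lay on both sides of the old controls. C1qc differed by 0.61 (SE 0.12) with age (adjusted P = 0.0128) and by -0.39 under CR (adjusted P = 0.0182). Under resveratrol its difference was 0.02, with a 95% interval from -0.24 to 0.28. Without old control replicate 4, the highest of its group for all 3 chains, the age call of C1qc (0.56, adjusted P = 0.0519) and the CR calls of C1qa and C1qc (-0.25, adjusted P = 0.0859, and -0.35, adjusted P = 0.0533) were lost. The CR call of C1qa was also lost without CR replicate 2 or 5, that of C1qc without CR replicate 2 (adjusted P at least 0.0512), and the resveratrol call of C1qa without old control replicate 1 or 3 or resveratrol replicate 4 (0.22 to 0.31, adjusted P = 0.0537 to 0.1).

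**Figure D1:**
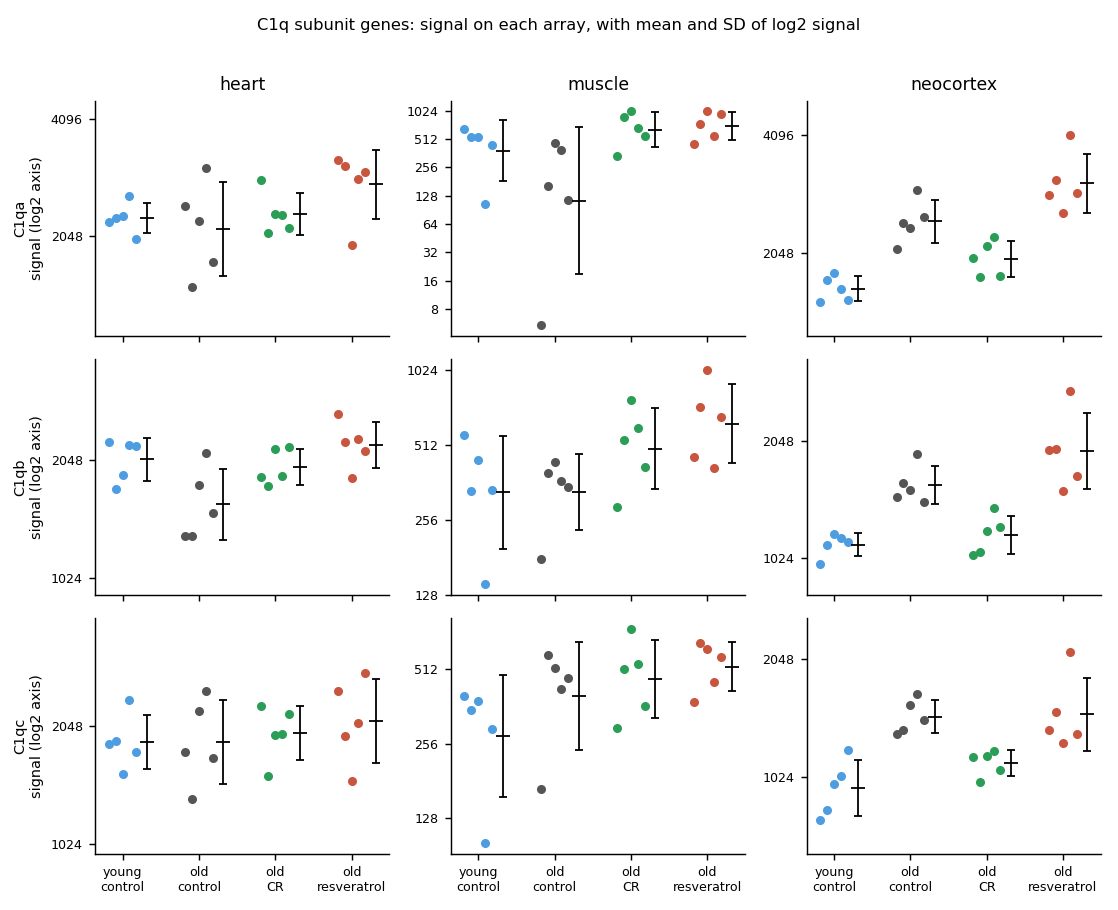
Signal of C1qa, C1qb and C1qc (log2 axis) on each array in heart, muscle and neocortex, by group; points are arrays and bars the mean and SD of log2 signal, n = 5. In neocortex the old controls of each chain sit above the young ones, and the CR arrays of C1qb and C1qc sit below the old controls.

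The 2 diets differed directly in neocortex. CR was lower than resveratrol for C1qa by 0.64 (adjusted P = 0.00126), for C1qb by 0.71 (adjusted P = 0.00135) and for C1qc by 0.41 (adjusted P = 0.0372), and the arrays of the 2 diets did not overlap for any of the 3. The calls covered 3 of 5 members, against 5.62% of all genes called lower under CR than under resveratrol. The share of all genes whose arrays did not overlap is not given here. The call of C1qc was lost without any 1 of CR replicates 1, 2, 3 and 5 or resveratrol replicates 2 and 4 (-0.43 to -0.28, adjusted P = 0.0501 to 0.114).

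Against the young controls, resveratrol-fed neocortex was higher for all 3 chains. The differences were 0.90 for C1qa (adjusted P = 1.36e-06), 0.79 for C1qb (adjusted P = 2.1e-05) and 0.63 for C1qc (adjusted P = 0.000417). Under CR none of the 3 genes passed against young controls, with differences of 0.25 (adjusted P = 0.0642), 0.08 (adjusted P = 0.623) and 0.21 (adjusted P = 0.19) for C1qa, C1qb and C1qc, although the other 2 probe sets of C1qb were higher (0.31, adjusted P = 0.0283, and 0.47, adjusted P = 0.00784).

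C1qb was read by 3 probe sets, and the other 2 gave another picture for CR. Tested over all probe sets of the neocortex, they differed by 0.09 (adjusted P = 0.587) and -0.04 (adjusted P = 0.852) under CR, so the fall under CR rests on the brightest probe set. With age they differed by 0.23 (adjusted P = 0.374) and 0.51 (adjusted P = 0.0642), neither passing (0.53% of all probe sets rose with age). Young and old arrays did not overlap on either of them, and the share of all probe sets without overlap is not given here. Under resveratrol both rose, by 0.56 (adjusted P = 0.000559) and 0.71 (adjusted P = 0.000339), where 11% of all probe sets rose. Both were also lower under CR than under resveratrol, by 0.47 (adjusted P = 0.0104) and 0.75 (adjusted P = 0.00228). All 3 probe sets passed in this contrast and in resveratrol against young controls (0.78 and 1.21 on the other 2, adjusted P = 9.96e-06 and 4.5e-07). With the 3 probe sets averaged, the age difference of C1qb was 0.41 (adjusted P = 0.0816) and the CR difference -0.12 (adjusted P = 0.444).

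Markers of macrophages and microglia other than the members moved in neocortex with age and between the diets. Of 20 tested, 11 rose with age, including Trem2 (1.47), a microglial receptor of lipids, and Lyz2 (1.31), lysozyme. Under CR 3 fell, under resveratrol 7 rose, and 10 were lower under CR than under resveratrol. Over all genes, 1.08% rose with age, 17.5% fell under CR, 12.3% rose under resveratrol and 5.62% were lower under CR than under resveratrol. The summed signal of the 21 markers was 12510 to 14200 in young controls, 16740 to 20110 in old controls, 15480 to 18110 under CR and 21080 to 26840 under resveratrol. Old controls and CR overlapped in this sum (exact permutation test, two-sided P = 0.405). C1qc and the brightest probe set of C1qb did not overlap between these 2 groups, and the other 2 probe sets of C1qb did. The β-actin 3′ minus 5′ difference also separated the diets from the old controls, at 0.45 to 0.60 in old controls, 0.66 to 0.77 under CR and 0.76 to 1.01 under resveratrol (log2). Poly(A) controls separated resveratrol (9.46 to 10.04, log2) from old controls (8.49 to 9.25), while CR (8.48 to 9.58) overlapped both. The part of the markers, of RNA quality or of the poly(A) controls in the C1q values was not tested.

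**Figure D2:**
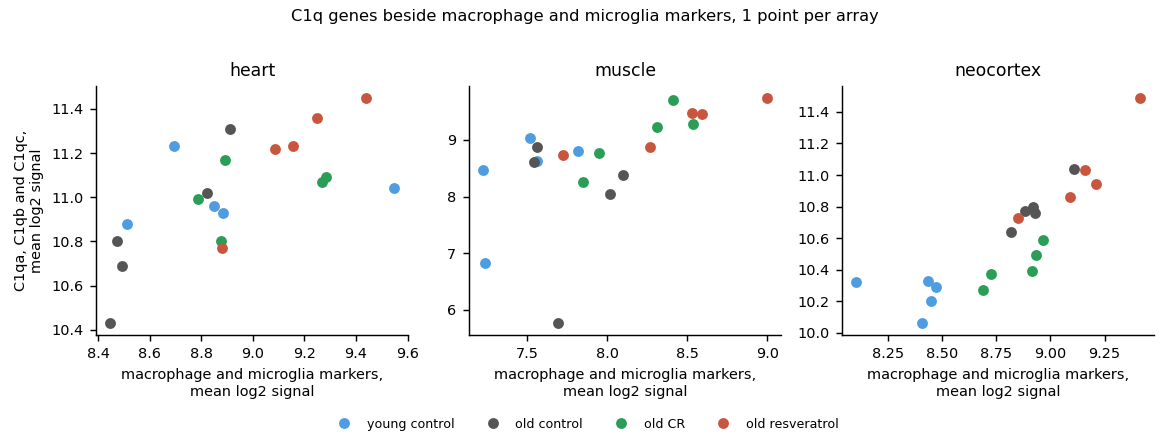
Mean log2 signal of C1qa, C1qb and C1qc against the mean log2 signal of the macrophage and microglia markers, with 1 point for each array and 1 panel for each tissue. In neocortex the young controls sit below all other arrays in marker level, and the CR arrays (C1q means of 10.27 to 10.59) sit below the old controls (10.64 to 11.04) at marker means that overlap.

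In heart C1qb rose under resveratrol, and no C1q gene passed the test with age. C1qb was the only member to rise under resveratrol (1 of 6, against 7.08% of all genes). The signals of C1qb were 2281, 1728, 1871, 2230 and 2217 in young hearts, 1309, 1309, 1767, 2133 and 1500 in old controls, 1846, 1756, 2183, 1861 and 2203 under CR, and 2681, 2277, 1844, 2316 and 2161 under resveratrol. Old controls were the lowest group, but they overlapped each of the others. The difference was 0.51 (SE 0.13) under resveratrol (adjusted P = 0.00738), 0.32 under CR (adjusted P = 0.0836) and -0.38 with age (adjusted P = 0.0599). On the other 2 probe sets the direction with age was the opposite (0.25, adjusted P = 0.459, and 0.13, adjusted P = 0.757), and they differed by 0.13 and -0.003 under CR (adjusted P = 0.692 and 0.994) and by 0.38 and 0.59 under resveratrol (adjusted P = 0.196 and 0.0536). With the 3 averaged, the differences were 0.49 under resveratrol (adjusted P = 0.0404), 0.15 under CR (adjusted P = 0.565) and -0.00091 with age (adjusted P = 0.998).

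The resveratrol differences in heart were 0.38 for C1qa (adjusted P = 0.0954) and 0.18 for C1qc (adjusted P = 0.517). Their age differences were -0.09 and 0.00, with 95% intervals from -0.41 to 0.23 and from -0.35 to 0.35. No member passed under CR in heart (0 of 6, against 22% of genes in either direction). Of these 6, 2 had an unadjusted P under 0.05 by limma, C1qb and Serping1. Without the 2 hearts that stood apart, young control replicate 1 and old control replicate 4, the brightest probe set of C1qb rose under CR (0.43, adjusted P = 0.01) and fell with age (-0.45, adjusted P = 0.0223), and C1qa rose under resveratrol (0.51, adjusted P = 0.0129). These 2 were chosen after seeing the data, and old control replicate 4 also had the highest C1q mean of its group (11.31, log2). Leaving it out alone gave 0.43 for C1qb under CR (adjusted P = 0.0165 by limma). Of 20 macrophage markers tested in heart, 8 were higher under CR and 7 under resveratrol (7.98% and 7.08% of all genes rose). Their summed signals were 14890 to 19520 in old controls, 22930 to 28370 under CR and 20630 to 30450 under resveratrol. The higher β-actin difference of the old hearts lay along the same contrasts, and the part of either in the C1q values was not tested.

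In muscle the C4a/C4b probe set and the dimmer probe sets of C1qb rose under both diets, as given below. Of the members tested as genes there, only C1qa was higher under either diet (1 of 5 under CR, against 17.5% of genes that rose, and 1 of 5 under resveratrol, against 9.42%). Its signals were 649.7, 531, 533, 103 and 443 in young muscle, 5.37, 162, 463, 387 and 115 in old controls, 337, 871, 999.7, 665 and 550.4 under CR, and 448, 738, 1006, 549.7 and 941 under resveratrol. On the log2 scale old controls spread over a wider range than the other groups (SD 2.59, against 0.50 to 1.08), and they overlapped both diets. C1qa differed by 2.51 (SE 0.80) under CR (adjusted P = 0.0215), by 2.64 under resveratrol (adjusted P = 0.0234) and by -1.77 with age (adjusted P = 0.324). Without the 2 muscles of high β-actin difference, the diet differences of C1qa were 1.41 (adjusted P = 0.00654) and 1.55 (adjusted P = 0.00453). The CR call was lost without CR replicate 3 (2.35, adjusted P = 0.05) and the resveratrol call without resveratrol replicate 3 or 5 (2.52 to 2.54, adjusted P = 0.0506 to 0.0537).

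The B and C chains were less variable in muscle. C1qb had signals of 179 to 436 in old controls, 287 to 774 under CR and 412 to 1021 under resveratrol. Its brightest probe set differed by 0.58 under CR (adjusted P = 0.19) and 0.91 under resveratrol (adjusted P = 0.0602), and the other 2 rose under CR (0.85 and 0.99, adjusted P = 0.0131 and 0.0138, where 19.4% of all probe sets rose) and under resveratrol (0.85 and 1.26, adjusted P = 0.0184 and 0.00438, where 10.7% rose). C1qc differed by 0.23 under CR and 0.39 under resveratrol and passed in neither (adjusted P = 0.655 and 0.468). No member changed with age in muscle by limma (0 of 5, 1 of them, C1qa, with an unadjusted P under 0.05, against 0.429% of genes in either direction), and none differed between the diets (0 of 5, also without adjustment, against 0.561%). Over the 5 members the median difference was 0.58 under CR and 0.91 under resveratrol, beside 0.10 and 0.07 over all genes. Of the 17 macrophage markers tested in muscle, 6 rose under CR and 7 under resveratrol (17.5% and 9.42% of all genes rose). The poly(A) controls separated the same groups, and the part of the markers or of these controls in these differences was not tested.

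**Figure D3:**
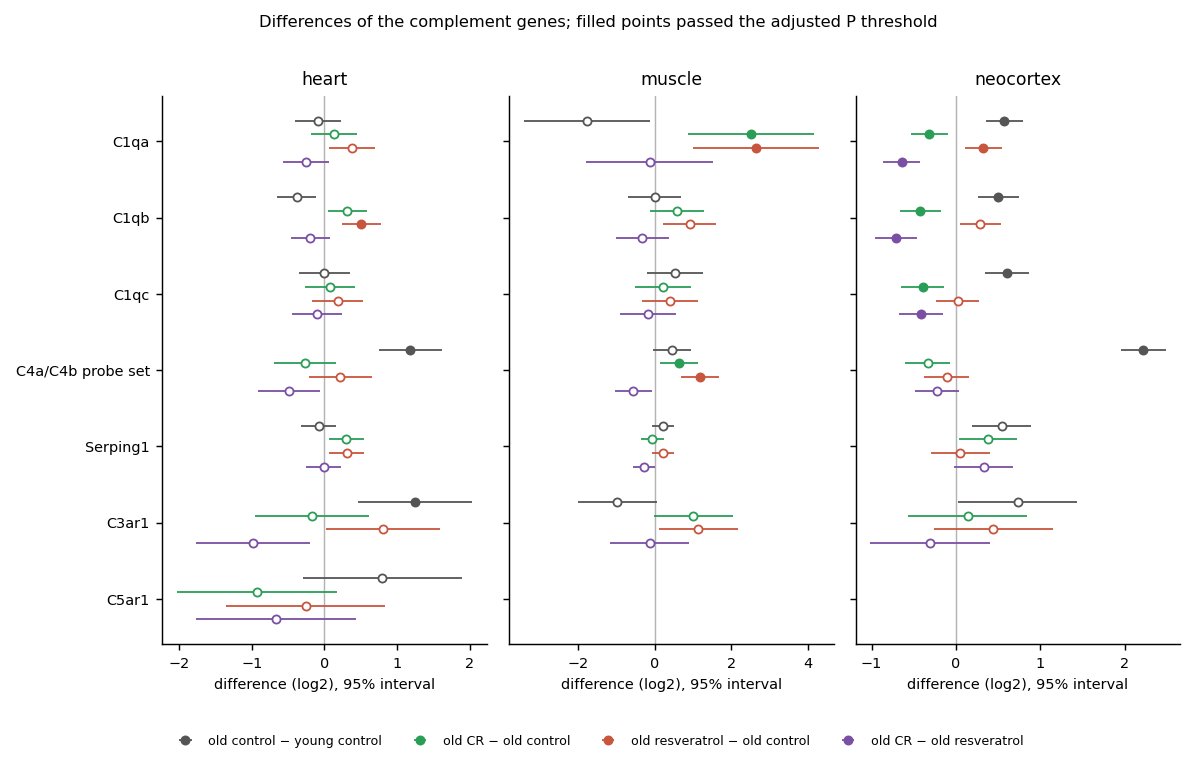
Log2 differences of the members and of the C4a/C4b probe set with 95% intervals, for age, CR, resveratrol and CR against resveratrol in each tissue; filled points passed the adjusted P threshold. The 3 C1q genes lie above 0 with age and below 0 under CR in neocortex, and the C4a/C4b probe set lies farthest from 0 with age in neocortex.

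C4, the component cleaved by the activated C1 complex, showed the largest age difference in neocortex among the probe sets of the members and rose with age in heart too. Its probe set is named for both C4a (chr17:34809092-34823460) and C4b (chr17:34728139-34743902), so the signal cannot be assigned to C4b alone. It was tested among all probe sets rather than among the genes. In neocortex the signals were 658, 499, 517, 569.5 and 546 in young controls and 2347, 2535, 2412, 3101 and 2623 in old controls. Under CR they were 1785, 1776, 2048, 2975 and 1881, and under resveratrol 2347, 2876, 1854, 2522 and 2519. Every old array, on any diet, was above every young one. The difference with age was 2.22 (SE 0.13, adjusted P = 2.06e-10). Under CR it was -0.34 (adjusted P = 0.0548), and 4 of 5 CR arrays were below the lowest old control. Without CR replicate 4, the array at 2975, the CR difference was -0.47 (adjusted P = 0.00307). Without old control replicate 4, the array at 3101, its adjusted P by limma was 0.149. Over all settings the CR difference ran from -0.47 to -0.27. Under resveratrol the difference was -0.11 (adjusted P = 0.58).

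In heart the C4a/C4b signals were 709.6, 738, 601, 732 and 799 in young controls, 1177, 1182, 1489, 2920 and 1821 in old controls, 1466, 956, 1438, 1137 and 1900 under CR, and 2421, 1625, 1515, 1586 and 2490 under resveratrol. Young hearts were again below all old ones. The difference with age was 1.18 (SE 0.21, adjusted P = 0.000431, where 5.41% of all probe sets rose), and neither diet differed from the old controls (-0.27 under CR, adjusted P = 0.4, and 0.22 under resveratrol, adjusted P = 0.556). Without the 2 hearts that stood apart the age difference was 0.97 (adjusted P = 0.00161).

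In muscle the pattern was another. The C4a/C4b signals were 599, 444, 468, 438 and 413 in young controls, 580.3, 599.5, 602, 635 and 827 in old controls, 892, 940, 1354, 1117 and 759 under CR, and 1145, 1456, 3294, 1025 and 1179 under resveratrol. Resveratrol arrays were above all old controls, and all CR arrays were above 4 of 5 old controls. The probe set rose by 1.18 under resveratrol (SE 0.24, adjusted P = 0.00138) and by 0.63 under CR (adjusted P = 0.0471), and its age difference was 0.46 (adjusted P = 0.377). The CR call was lost on leaving out 1 of 13 arrays (0.51 to 0.66, adjusted P = 0.0505 to 0.126), lowest without CR replicate 3. Against young muscle it was higher under CR by 1.08 (adjusted P = 0.00177) and under resveratrol by 1.64 (adjusted P = 5.78e-05). The part of the poly(A) controls, which separated both diets from both control groups in muscle, was not tested.

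**Figure D4:**
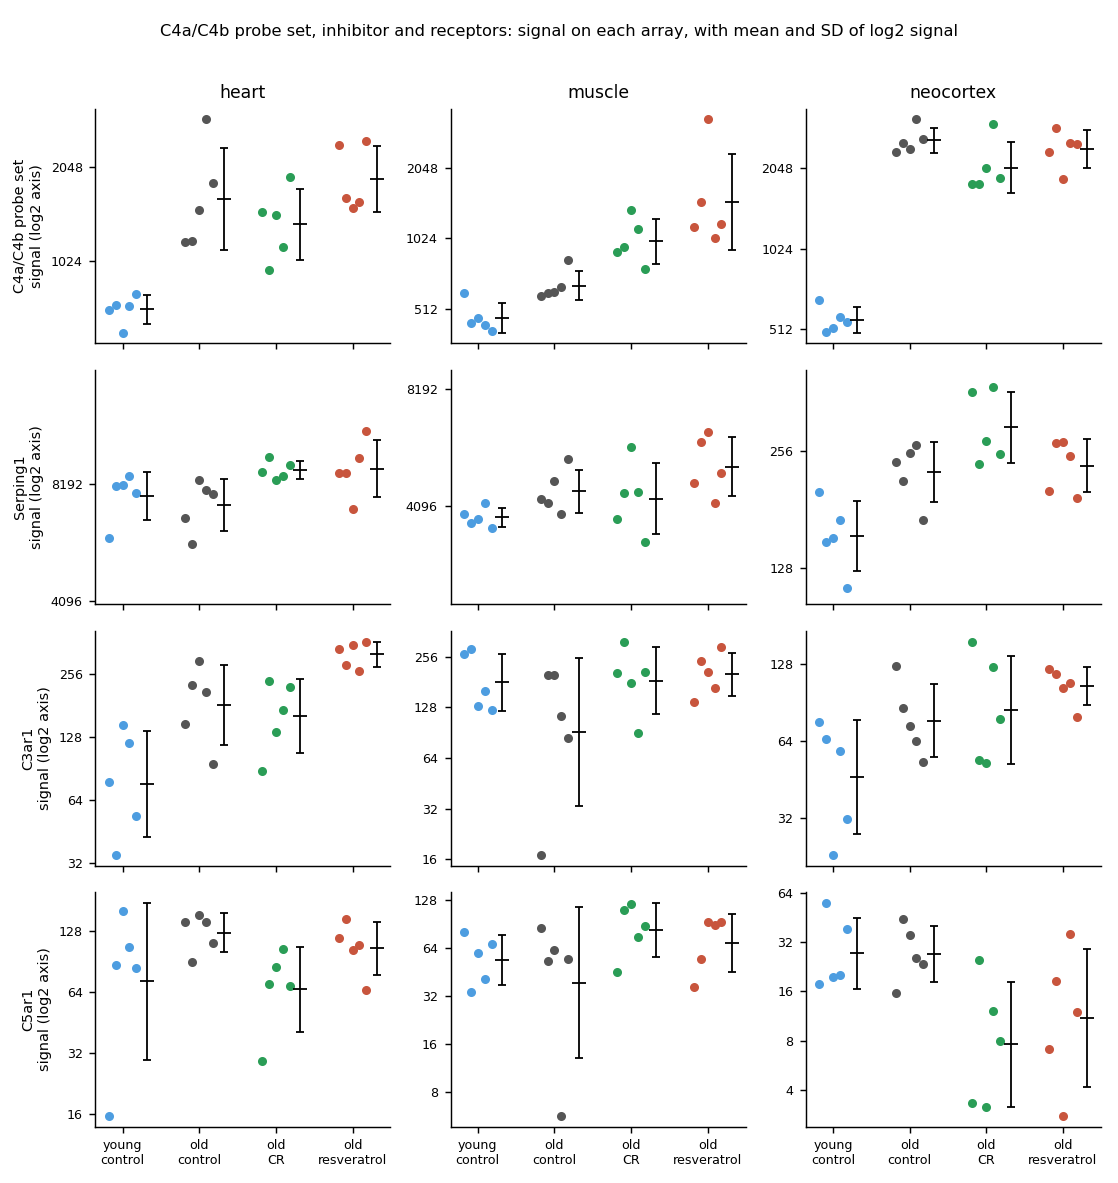
Signal of the C4a/C4b probe set, Serping1, C3ar1 and C5ar1 (log2 axis) on each array in heart, muscle and neocortex, by group; points are arrays and bars the mean and SD of log2 signal, n = 5. All old arrays of the C4a/C4b probe set sit above the young arrays in heart and neocortex.

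Serping1 (chr2:84765360-84775444), whose product inhibits the C1 proteases, was bright in heart (5755 to 11230) and muscle (3314 to 6344) and dim in neocortex (114 to 375), with no overlap between neocortex and the other tissues. In neocortex its signals were 201, 149, 153, 171 and 114 in young controls and 240.3, 214, 253, 265 and 171 in old controls. Under CR they were 363, 237, 272, 375 and 252, and under resveratrol 202, 268, 269.8, 248 and 194. All CR arrays were above all young ones. Serping1 was higher under CR than in young controls by 0.92 (SE 0.17, adjusted P = 0.000165) and under resveratrol by 0.60 (adjusted P = 0.00798). With age alone it differed by 0.54 (adjusted P = 0.109), and CR differed from old controls by 0.38 (adjusted P = 0.089), the opposite sign to the C1q genes.

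Against young neocortex, 2 of 5 members were higher under CR (Serping1 and C3ar1, against 18.3% of genes) and all 5 under resveratrol (against 18.2%). In heart the signals of Serping1 were 5967, 8077, 8122, 8587 and 7749 in young controls, 6694, 5755, 8389, 7915 and 7706 in old controls, 8780, 9606, 8403, 8570 and 9149 under CR, and 8724, 8756, 7055, 9528 and 11230 under resveratrol. All CR hearts were above all old controls, but the difference of 0.30 did not pass (adjusted P = 0.0673), nor did that of 0.31 under resveratrol (adjusted P = 0.0689). Both passed without the 2 hearts that stood apart, a choice made after seeing the data (0.33, adjusted P = 0.0256, and 0.34, adjusted P = 0.0252). With 1 array left out, each passed for 3 of the arrays. Without old control replicate 2, their adjusted P by limma rose to 0.202 and 0.206. The higher β-actin difference of the old hearts lay along the same contrasts, and its part was not tested. Of the members tested as genes in muscle, only Serping1 was higher under resveratrol than in young controls (0.43, adjusted P = 0.0316, 1 of 5, against 12.4% of genes). This call was lost on leaving out 1 of 6 arrays, the lowest value being 0.36 and the highest adjusted P 0.0949 (without resveratrol replicate 3). The C4a/C4b probe set, tested among the probe sets, was higher in that contrast too, as given above. The 2 dimmer probe sets of C1qb were also higher in that contrast (0.70, adjusted P = 0.0464, and 1.35, adjusted P = 0.0022).

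C3ar1 (chr6:122847140-122856157) encodes the receptor of the C3a peptide. The C4a/C4b probe set rose with age in heart, as given above. Of the members tested as genes, only C3ar1 rose with age in heart (1 of 6, against 7.05% of genes). The signals were 78.5, 35.1, 146, 121 and 53.6 in young hearts, 148, 227, 296, 210.4 and 95.1 in old controls, 87.8, 237, 135, 173 and 223 under CR, and 338, 283, 352, 266 and 365 under resveratrol. Young and old controls overlapped, and all resveratrol hearts were above all young and all CR hearts. The age difference was 1.25 (SE 0.38, adjusted P = 0.035), and resveratrol was 2.06 above young controls (adjusted P = 0.00145; 1 of 6 members, against 4.55% of genes). CR and resveratrol differed by -0.98 (adjusted P = 0.167), and no member passed in that contrast in heart (0 of 6 by limma, 1 with an unadjusted P under 0.05, against 4% in either direction).

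The other 2 probe sets of C3ar1 in heart differed by -0.06 and -0.07 with age (adjusted P = 0.948 and 0.92), and the mean of all 3 by 0.37 (adjusted P = 0.401). For resveratrol against young hearts they differed by 0.42 and 0.15 (adjusted P = 0.555 and 0.831) and the mean of all 3 by 0.88 (adjusted P = 0.0379), and for CR against resveratrol by 0.06 and -0.06, with a mean of -0.32 (adjusted P = 0.594). The age call of C3ar1 was also lost without any 1 of young control replicates 2 and 5 or old control replicates 2, 3 and 4 (0.97 to 1.198, adjusted P = 0.0743 to 0.111). In neocortex C3ar1 was dim (23.0 to 156) and was higher than in young controls under resveratrol (1.18, adjusted P = 0.00971) and under CR (0.87, adjusted P = 0.0495); the CR call was lost on leaving out 1 of 13 arrays (0.62 to 0.90). Its other probe set tested there differed by 0.59 under resveratrol (adjusted P = 0.0661) and 0.17 under CR (adjusted P = 0.627) and passed in neither. In muscle no contrast of its brightest probe set passed, the diet differences being 1.01 under CR (adjusted P = 0.128) and 1.14 under resveratrol (adjusted P = 0.117), while 1 other probe set was higher than in young muscle under CR (1.10, adjusted P = 0.0106) and resveratrol (1.32, adjusted P = 0.00419).

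C5ar1 (chr7:16246743-16259540), the receptor of C5a, was dim in every tissue. In heart the signals of its brightest probe set ran from 15.6 to 159.5, and no contrast passed (SE 0.53 in each), the 95% interval of the age difference being -0.30 to 1.90. In muscle the signals of this probe set were 5.64 to 119.9 and in neocortex 2.78 to 55.5, below the level at which genes were tested. The other probe set of C5ar1 ran from 5.96 to 275 in heart and from 3.695 to 58.2 in neocortex. In muscle it read 43.6 to 126 in young and 4.575 to 44.05 in old controls, and no test of it is given here.

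The tissues were compared in 1 model of all 60 arrays and 13278 genes, in which 5 members were tested. The spread of a gene is shared by the tissues in this model, so the wide muscle values of C1qa enter every tissue. The labels do not say which arrays of different tissues came from 1 mouse, and the arrays were taken as independent. For the age difference, 1 member differed between heart and muscle (C3ar1, 2.23, adjusted P = 0.0208, against 6.31% of genes), none between neocortex and heart (3.92% of genes) and none between neocortex and muscle (0.377%). In each of the last 2 comparisons 2 members had an unadjusted P under 0.05 by limma. The other 2 probe sets of C3ar1 had the opposite direction in this comparison (-0.91, adjusted P = 0.224, and -0.42, adjusted P = 0.64), and the mean of all 3 differed by 0.30 (adjusted P = 0.681), so the difference rests on 1 dim probe set. The call was also lost without heart young control replicate 2 or muscle old control replicate 1 (1.62 to 1.95, adjusted P = 0.0519 to 0.062). The age difference of the C4a/C4b probe set was larger in neocortex than in heart by 1.04 (adjusted P = 0.029, where 4.69% of probe sets differed) and than in muscle by 1.77 (adjusted P = 0.000995, where 0.63% differed). Without 1 of 4 arrays, heart old control replicates 1 and 2 and neocortex young control replicate 2 and old control replicate 4, the first of these was 0.93 to 1.003 (adjusted P = 0.0527 to 0.0652).

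For CR, the difference of C1qa from old controls was lower in heart than in muscle (-2.38, adjusted P = 0.0123; 1 of 5 members, against 23.2% of genes) and C1qa and C1qb differed between neocortex and muscle (-2.83, adjusted P = 0.00346, and -1.003, adjusted P = 0.0236; 2 of 5, against 19.8%). The other 2 probe sets of C1qb gave -0.76 (adjusted P = 0.051) and -1.03 (adjusted P = 0.0219) in the latter. No member differed between neocortex and heart under CR (0 of 5, 1 with an unadjusted P under 0.05, against 9.19%). For resveratrol, C1qa differed between heart and muscle (-2.27, adjusted P = 0.0209; 1 of 5, against 19%) and between neocortex and muscle (-2.32, adjusted P = 0.0259; 1 of 5, against 12.3%), and no member between neocortex and heart (0 of 5, also without adjustment, against 5.83%). With the 4 arrays that stood apart left out, the C1qa differences were -1.16, -1.73, -1.04 and -1.22 in the same order and all passed. Without muscle old control replicate 1 alone, the resveratrol difference of C1qa between neocortex and muscle was -1.22 (adjusted P = 0.0556), and the CR difference of C1qb was lost without that array or muscle CR replicate 3 (-0.84 to -0.78, adjusted P = 0.0673 to 0.0764).

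The diet differences of the C4a/C4b probe set were also lower outside muscle. Under CR they were lower in neocortex than in muscle (-0.96, adjusted P = 0.0169) and in heart than in muscle (-0.89, adjusted P = 0.022), and the same held under resveratrol (-1.29, adjusted P = 0.00178, and -0.96, adjusted P = 0.0154). The heart differences were lost without the 4 arrays that stood apart (-0.64, adjusted P = 0.111, and -0.71, adjusted P = 0.082). They were also lost without heart old control replicate 4, heart CR replicate 2 or muscle CR replicate 3 for CR (-0.78 to -0.68) and without heart old control replicate 4 or muscle resveratrol replicate 3 for resveratrol (-0.75 to -0.67).

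The 3 C1q genes varied together within groups. Over the 20 arrays of a tissue, after subtracting group means, the correlation of log2 signal was 0.83 between C1qa and C1qb, 0.70 between C1qa and C1qc and 0.78 between C1qb and C1qc in neocortex, and 0.55, 0.79 and 0.69 in heart. In muscle it was 0.75, 0.82 and 0.93, where the 2 arrays of high β-actin difference were low for these genes. Serping1 correlated with C1qa at 0.22 in neocortex, 0.48 in heart and 0.14 in muscle. These are descriptions over arrays that share a scan and a scaling.

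By the same measure, the tested genes most like the mean of the 3 C1q genes in neocortex were H2-K1 (0.93) and B2m (0.91), which encode the heavy chain and the light chain of class I major histocompatibility molecules, and Rhoj (0.82), a small GTPase of endothelium. In heart they were the chemokine genes Ccl8 (0.86) and Ccl12 (0.81) and Commd10 (0.80). In muscle they were Ccnd3 (0.94), Fitm1 (0.93) and Mrpl4 (0.92). The genes most like Serping1 were Cnnm3 (0.87) in neocortex, Gpihbp1 (0.86), an endothelial anchor of lipoprotein lipase, in heart and Icam2 (0.83), an endothelial adhesion molecule, in muscle.

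Other genes of the complement system were taken from a list of 57, of which 47 had a probe set. In neocortex 1 of the 30 tested rose with age, Itgb2 (0.66, adjusted P = 0.0487), the β chain of complement receptor 3. Under CR 5 rose and 6 fell (13.1% and 17.5% of all genes), and under resveratrol 4 rose and 7 fell (12.3% and 13.9%), with list medians of -0.09 and 0.02. The counts were not tested against these shares, and the named genes are given as single values. Calr, whose product calreticulin can bind C1q, fell under CR (-0.77, adjusted P = 1.21e-06) and under resveratrol (-0.35, adjusted P = 0.0049). Sez6 and Sez6l, neuronal genes whose products carry complement control domains, fell under CR (-0.995 and -1.09) and under resveratrol (-1.10 and -1.002). Colec11, a soluble collectin of the lectin pathway, rose under CR (1.12, adjusted P = 0.00109). Cfp, properdin of the alternative pathway, was lower under CR than under resveratrol (-0.51, adjusted P = 0.024), as were Calr (-0.43) and Lrp1 (-0.29).

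In heart 2 of 37 rose with age, a share below the 7.05% of all genes, Clu (0.64, adjusted P = 0.00154), clusterin, an inhibitor of the terminal complex, and C8g (1.60, adjusted P = 0.0466). Under CR 6 rose and 1 fell (7.98% and 14.1% of all genes), and under resveratrol 3 rose and 1 fell (7.08% and 10.5%). Vsig4, a complement receptor of resident macrophages, rose by 1.27 under CR (adjusted P = 2.72e-05) and by 0.92 under resveratrol (adjusted P = 0.00119). C9, the pore-forming component, rose by 1.77 (adjusted P = 0.00806) and 1.47 (adjusted P = 0.0312). C9 is made in liver, and the summed hepatocyte markers in the same hearts were 3490 to 5448 under CR, 893 to 6155 under resveratrol and 605 to 853 in old controls; their part in this was not tested. Calr fell here too, by 1.16 under CR (adjusted P = 3.88e-08) and by 0.77 under resveratrol (adjusted P = 1.67e-05).

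In muscle none of 32 changed with age by limma, 4 of them with an unadjusted P under 0.05. Under CR 2 rose and 1 fell, and under resveratrol 1 rose and 1 fell, all below the shares over all genes (17.5% and 13.6% under CR, 9.42% and 9.26% under resveratrol). Vtn, vitronectin, which also restrains the terminal complex, fell under CR (-0.79, adjusted P = 0.00518) and resveratrol (-0.90, adjusted P = 0.00331), and C1qbp, a mitochondrial protein first found as a C1q binder, rose under both (0.41, adjusted P = 0.00682, and 0.33, adjusted P = 0.0355).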

How the data were processed

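RNA of heart, gastrocnemius muscle and neocortex was hybridised to 60 Affymetrix mouse genome arrays, each deposited as GCOS 1.2 signal, a linear intensity; the 2% trimmed mean was 500 on all 60 arrays, as scaled by the authors. The array has 45101 probe sets (64 controls); 34945 named 1 gene, 932 several and 9160 none, in an annotation that can be old. Signals below 1 were set to 1 and log2 was taken. For each gene the probe set of highest mean over all arrays was taken, and in each tissue genes at or above the 40th percentile were tested (13278 in heart, 12825 in muscle, 13051 in neocortex; signals of at least 60.5, 69.5 and 57.4). limma 3.58.1 (lmFit, eBayes with trend; R 4.3.3) was fitted to the 4 groups of a tissue, two-sided, with Benjamini-Hochberg adjustment; the script was tested on simulated data. Probe sets were also fitted singly (27000, 27001 and 27000), which served C4a/C4b, and tissues were compared by differences of differences over all arrays. The number of arrays, 5 per group, limits precision.

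The members and gene lists were chosen with earlier results of these data known. Named from the pathway lists are up to 6 genes of largest change past the threshold in a comparison, and the 3 genes most like the C1q mean and Serping1 were ranked; C3 and C4b had no probe set of their own for this. Alternatives were quantile normalization, an offset of 16, no filter and the 60th percentile, eBayes without trend, only the 2 groups compared, every or the mean of all probe sets, a block on the replicate number, the methods' t-test, leaving out each array, and, chosen after seeing the data, leaving out 4 arrays that stood apart, single and averaged probe sets between tissues, and a random block on same-numbered arrays across tissues. Marker sums and control probe sets were compared by exact permutation tests, whose smallest P is 0.00794. Sequences were read from RefSeq tables of GRCm38.p6, which gave promoters for C1qb and C1qc.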

Additional observations from a re-analysis of the deposited data

Results flagged for a closer look

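Among 76 groups of 5 arrays, 9 held 1 array whose gap to the next was large for the range of its group, where chance gives about 1 in 20 groups. In muscle, young control replicate 4 was low for C1qa (103.2, the others 443.3 to 649.7) and C1qc (101.9, the others 294 to 396.8). Old control replicate 1 was low for C1qb (178.8, the others 347 to 435.5) and C1qc (167.5, the others 424.2 to 583.7). These were the 2 muscle arrays of high β-actin 3′ to 5′ difference, and its part in their C1q values was not tested. In heart, young control replicate 1, the array of high lymphocyte markers, was low for C5ar1 (15.59, the others 83.85 to 159.5) and Serping1 (5967, the others 7749 to 8587), and resveratrol replicate 3 was low for C1qa (1941, the others 2877 to 3206). The C4a/C4b probe set was high in muscle old control replicate 5 (827, the others 580.3 to 634.9) and in neocortex CR replicate 4 (2975, the others 1776 to 2048).

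Differences that themselves differed between tissues, by the model of all arrays, were also singled out. For C1qa these were the CR difference of heart minus muscle (-2.38) and of neocortex minus muscle (-2.83) and the resveratrol differences of the same pairs (-2.27 and -2.32). For C1qb it was the CR difference of neocortex minus muscle (-1.003), and for C3ar1 the age difference of heart minus muscle (2.23), which had the opposite direction on its other 2 probe sets (-0.91 and -0.42). For the C4a/C4b probe set they were the age differences of neocortex minus heart (1.04) and minus muscle (1.77), the CR differences of neocortex minus muscle (-0.96) and heart minus muscle (-0.89), and the resveratrol differences of the same pairs (-1.29 and -0.96).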

How the results depend on the processing

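Single probe sets changed the direction of some members. For C1qb they gave 0.089 under CR in neocortex, 0.25 and 0.13 with age in heart, -0.0030 under CR in heart and -0.023 for age in neocortex minus heart. For C3ar1 they gave -0.058 and -0.070 with age in heart, 0.064 for CR against resveratrol in heart, and -0.91 and -0.42 (heart) and -0.55 (neocortex) for age minus that in muscle. No other setting changed the sign of a called value. Of the counts of called members, 744 of 780 with 1 array left out and 186 of 236 under other settings stayed within 1.5 times. A count of 0 that stayed 0, or of 3 that became 2, was taken as within this range. These shares therefore say little about single calls. The exceptions follow as counts of called members; the cause was not tested. With the 4 arrays that stood apart left out, heart CR gave 2 in place of 0 and heart resveratrol 3 in place of 1, and of the differences between tissues CR neocortex minus heart gave 1, age heart minus muscle 0 in place of 1, age neocortex minus heart 2 and age neocortex minus muscle 1. Quantile normalization gave 2 for heart CR and 2 for heart age; the 60th percentile gave 2 for heart age, and no filter 0. Fitting only the 2 groups compared gave 1 for heart CR, 0 for heart age, muscle CR and neocortex resveratrol, and 2 for muscle resveratrol. Counting every probe set, or the mean of all, gave 2 for muscle CR, muscle resveratrol and neocortex resveratrol, and the mean gave 0 for heart age and 0 for age heart minus muscle. The replicate block gave 2 in place of 1 for muscle and for neocortex resveratrol; same-numbered arrays of a tissue did not vary together across groups (median correlations of 0.01, 0.01 and 0.03). Across tissues, same-numbered arrays of a group had a median correlation of -0.0014 (other numbers 0.00135), and a random block on them, chosen after seeing the data, changed no call between tissues; whether they share a mouse is not given.

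The methods' t-test on log2 signal after Benjamini-Hochberg adjustment gave 0 for age in heart (1 before) and neocortex (3 before) and for both diets in muscle, neocortex resveratrol and heart resveratrol (1 before), and 1 for CR against resveratrol in neocortex (3 before). On unlogged signal it gave 0 for the same counts except muscle resveratrol, 0 for CR against resveratrol in neocortex, and 1 for heart CR. At unadjusted P of 0.01 or less, it gave 0 for heart age, heart resveratrol, muscle CR and neocortex resveratrol on either scale and for muscle resveratrol on log2 signal, and 1 for heart CR against resveratrol on either scale (0 by limma). With 1 array left out, the counts ranged from 0 to 1 for heart CR, heart age and muscle CR, 1 to 3 for heart resveratrol and neocortex CR, 0 to 2 for muscle and neocortex resveratrol, and 1 to 4 for neocortex age. Between tissues they ranged from 1 to 2 for CR neocortex minus muscle, 0 to 2 for age heart minus muscle, and 0 to 1 for age neocortex minus heart, age neocortex minus muscle and resveratrol neocortex minus muscle. The C4a/C4b calls with age in heart and neocortex, under resveratrol in muscle, and of each diet against young controls in each tissue were kept in every setting run on that probe set. The methods' t-test and the mean of all probe sets were not run on it. C5ar1 and neocortical C3ar1 lay near the detection cut-off, where array signals are least precise.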
